A study of Caenorhabditis elegans with 11 samples.

Results

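The 6 ammonium transporter genes of Caenorhabditis elegans were followed over 8 RNA-seq libraries of whole worms. They were chosen by name among the 47084 genes listed in each file: the amt genes amt-1, amt-2, amt-3 and amt-4, and the Rhesus-related genes rhr-1 and rhr-2. The family was taken up because amt-4 was higher in the 2KR line than in the WT line, so the values of that contrast are given as a description with no test. The libraries came from worms at day 1 of adulthood, about 1000 per library, grown at 20 °C on E. coli OP50. N2, the wild-type laboratory strain, gave 2 libraries. The WT line gave 3 libraries and carried the deletion daf-16(mu86) with the array iqIs79, in which the daf-16 promoter drives unaltered DAF-16 fused to GFP. The 2KR line also gave 3 libraries and carried the same deletion with the array iqIs85, in which the lysines at positions 248 and 253 of the fusion were replaced by arginine. Both arrays also held pRF4, a rol-6 plasmid that makes worms roll and that N2 lacks, and each protein form was represented by 1 line. A further line, 4KR, was left out, since in its 3 files counts and gene names were out of step. Across genes, the Pearson correlation of log2(CPM + 1) was 0.372 to 0.388 between a 4KR library and any other, and at least 0.994 between any 2 of the N2, WT and 2KR libraries.

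Ammonium transporters of the Amt family and Rhesus proteins belong to one superfamily of channel-like membrane proteins that carry ammonia or ammonium across membranes. Worms release most of their waste nitrogen as ammonia, which amino acid and nucleotide breakdown produces, and the hypodermis is a main site of its release. Ammonia leaves as a gas that is trapped as ammonium where acid is supplied, so proton pumps, carbonic anhydrases and sodium-hydrogen exchangers work beside the transporters. DAF-16, a FOXO transcription factor, is held in check by insulin signalling.

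Total counts ran from 21947014 to 30810301 over the 8 libraries. Levels are in CPM, counts scaled to a common library total by TMM, with the SD over the libraries of a group. The daf-16 transcript had a mean of 152 CPM in N2, 418 CPM in WT and 246 CPM in 2KR, so the 2 lines did not carry the same level of it. Counts over the whole gene do not check the deletion. The rol-6 counts were 2 and 3 in N2, 1569 to 1951 in WT and 3745 to 4469 in 2KR, as the labels of the lines require.

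The family was dominated by rhr-1 and amt-4. Per kilobase of exon, rhr-1 reached 53.9 ± 0.256 CPM in the 2 N2 libraries (mean ± SD), and in the lines, with 3 libraries each, 61.5 ± 5.29 CPM (WT) and 74.6 ± 2.66 CPM (2KR). The next gene, amt-4, stood at 7.16 ± 0.206, 7.69 ± 1.17 and 13.5 ± 1.40 CPM per kilobase in the same order. In N2, rhr-2 had 1.30 ± 0.334 and amt-1 0.862 ± 0.269 CPM per kilobase, a difference larger than either SD, over 2 libraries. The 2KR means of these 2 genes stood the other way round. There amt-1 had 1.79 ± 0.976 and rhr-2 1.44 ± 0.142 CPM per kilobase, a difference within the spread of amt-1. That order rests on 2KR replicate 2, where amt-1 was at 5.08 CPM, against 2.22 and 2.06 CPM in replicates 1 and 3. Last came amt-3, with 0.296 to 0.419 CPM per kilobase in the 3 group means, and amt-2, with 0.0608 to 0.169. In CPM, rhr-1 made up 81.9% ± 0.398 of the summed level of the 6 genes in N2 and 77.8% ± 1.32 in 2KR, and amt-4 made up 14.1% ± 0.539 and 18.2% ± 1.01. Each of the 6 genes has 1 annotated transcript, so the length used did not depend on the isoform.

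The gene amt-4 (WBGene00000136, chromosome X 4565302 to 4569620 of WBcel235, plus strand) encodes an Amt-type transporter. Its level was 15.4 and 14.8 CPM in the 2 N2 libraries and 14.3, 19.003 and 15.4 CPM in WT replicates 1, 2 and 3. In the 2KR libraries it was 25.3, 29.2 and 31.04 CPM. All 3 2KR libraries were thus above all 5 others, while N2 and WT overlapped, and WT replicate 2 was the highest of those 5. The N2 mean was 15.1 ± 0.434 CPM (SD, n = 2), against 16.2 ± 2.47 CPM for WT and 28.5 ± 2.96 CPM for 2KR (SD, n = 3 each). The log2 fold change of 2KR against WT, which chose the gene, was 0.81 ± 0.12 SE, or 1.76-fold. Against N2 it was 0.91 ± 0.13 SE in 2KR and 0.10 ± 0.13 SE in WT. These too have no test, because they share libraries with the contrast that chose amt-4. Within libraries of 1 repeat label, which the file headers give as 1, 3 or 6-6, the ratio of 2KR to WT was 1.77, 1.54 and 2.01. These ratios split the same values that chose the gene, so they are a description too.

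**Figure D1:**
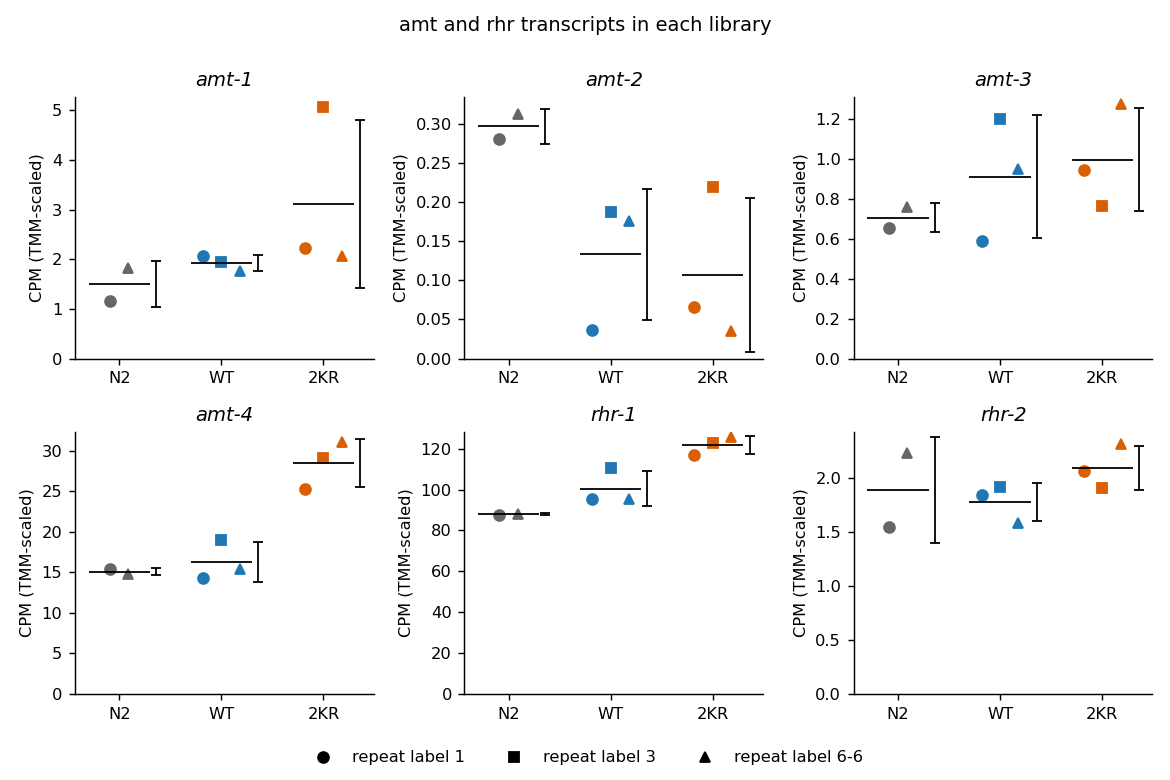
TMM-scaled CPM (vertical axes, from 0) of the 6 genes in the N2, WT and 2KR groups. Each symbol is 1 library and its shape is the repeat label of the file header, horizontal lines are group means, and error bars are ± SD over 2 or 3 libraries. The 3 2KR libraries lie above all others for amt-4 (25.3 to 31.04 CPM) and rhr-1 (117 to 126 CPM), and a single 2KR library at 5.08 CPM stands apart for amt-1.

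The main Rhesus gene, rhr-1 (WBGene00004358, chromosome V 5428160 to 5430431, plus strand), rose in 2KR against N2. It encodes a relative of the mammalian Rh glycoproteins, and it had the most counts of the family, 1877 to 3584 per library. Its level was 87.7 and 88.3 CPM in N2, 95.4, 110.5 and 95.6 CPM in WT, and 117.1, 123.0 and 125.6 CPM in 2KR. The 3 groups did not overlap: each WT library was above both N2 libraries, and each 2KR library was above each WT library. Such a step up with no overlap was found in 20.4% of all 14361 genes tested for WT over N2 and in 5.12% for 2KR over WT. In 2KR against N2 the log2 fold change was 0.47 ± 0.07 SE, or 1.39-fold (edgeR quasi-likelihood test, Benjamini-Hochberg adjusted p = 0.00425). The call rests on both N2 libraries: the edgeR adjusted p was 0.0714 without N2 replicate 1 and 0.0516 without N2 replicate 2, with log2 fold changes of 0.47 and 0.48, and rhr-1 passed under every other alternative tried. In WT against N2 the log2 fold change of rhr-1 was 0.19 ± 0.07 SE, which did not pass (edgeR adjusted p = 0.170). In 2KR against WT it was 0.28 ± 0.06 SE, given as a description because the contrast chose the family.

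In whole worms, fewer cells of a type and less RNA per cell cannot be told apart. Markers of 9 tissues were summed beside rhr-1 and amt-4. The summed level of 8 hypodermis markers was 1129 to 1189 CPM in N2, 1075 to 1218 CPM in WT and 1238 to 1318 CPM in 2KR. That of 7 intestine markers was 1607 to 1632 CPM in N2, 1655 to 1815 CPM in WT and 1752 to 1931 CPM in 2KR. Most of the hypodermis sum was col-19, with means of 950, 934 and 1061 CPM in N2, WT and 2KR. Most of the intestine sum was cpr-6, at 930, 927 and 953 CPM, so neither sum shows how the other markers of its list moved. The relative spread was wider for 5 pharynx markers, with sums of 27.1 to 43.04 CPM in N2, 41.6 to 79.8 CPM in WT and 40.9 to 93.7 CPM in 2KR. The pharynx groups overlapped, and none of its 5 markers was called in 2KR against N2. All 5 had an unadjusted edgeR p under 0.05 there, as did 3588 of the 14361 genes tested. Of the 5, pha-4 was lower in 2KR (log2 fold change -0.36 ± 0.16 SE) and the others were higher, with a median of 0.99 over all 5. There the median was 0.46 over the 8 hypodermis markers and 0.16 over the 7 intestine markers. Of these, 5 and 3 had an unadjusted edgeR p under 0.05, as did 4 of the 8 neuron markers, with a median of 0.35. Medians were 0.45 for coelomocytes, 0.23 for body wall muscle, -0.03 for the excretory canal, -0.06 for the germ line and -0.78 for sperm. In that comparison 3.76% of all genes tested were called higher, as were 1 of 8 hypodermis markers (col-12), 3 of 7 intestine markers (act-5, ifb-2 and pept-1) and 1 of 8 neuron markers (ric-4). No marker of the other 5 lists was called, and no marker found in the files was at 0 in all 8 libraries. For 5 excretory canal markers the sum was 117 to 125 CPM in N2 and 100.2 to 119.9 CPM in 2KR. The sums of the body wall muscle, coelomocyte, germ line and sperm lists overlapped between N2 and WT, and those of muscle, coelomocytes and sperm between N2 and 2KR. The germ line sum was 3703 to 3808 CPM in N2 and 3353 to 3666 CPM in 2KR. The neuron sum was 205.9 to 218.1 CPM in N2, 226 to 247 CPM in WT and 217 to 242 CPM in 2KR. Their part in the rhr-1 and amt-4 values was not tested.

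The levels of rhr-1 and amt-4 did not move in one proportion. In counts of the same library, amt-4 was 0.172 ± 0.00575 of rhr-1 in N2 (SD, n = 2), 0.161 ± 0.0113 in WT and 0.233 ± 0.0161 in 2KR (SD, n = 3 each). The ratio in 2KR ran from 0.216 to 0.247 and that in WT from 0.150 to 0.172, so the 2 groups did not overlap. It is a description, since amt-4 was chosen for being high in 2KR. In WT replicate 2, where amt-4 was the highest of the WT libraries, rhr-1 was the highest as well.

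**Figure D2:**
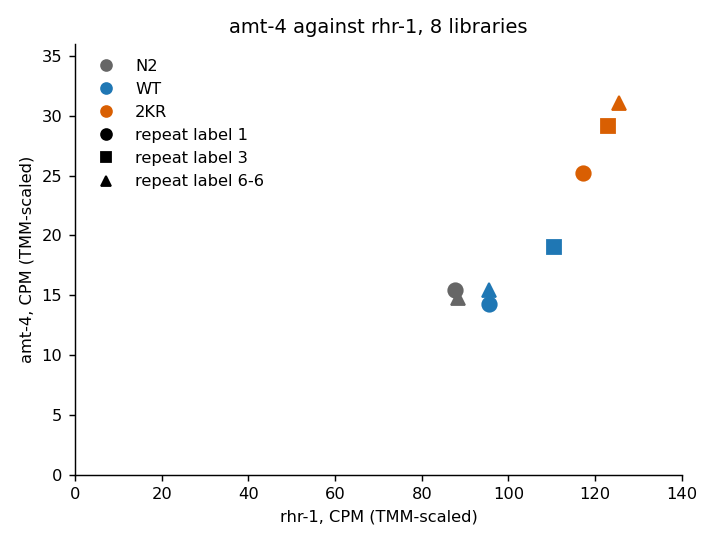
Level of amt-4 (vertical axis) against rhr-1 (horizontal axis), both in TMM-scaled CPM, with 1 symbol per library, colour for the group and shape for the repeat label. The 2KR libraries lie at the upper right with 117 to 126 CPM of rhr-1, and WT replicate 2, at 110.5 CPM of rhr-1 and 19.003 CPM of amt-4, lies between them and the other 4 libraries.

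The gene amt-1 (WBGene00000133, chromosome X 4571437 to 4573914, plus strand), another Amt-type transporter, lies 1816 bp downstream of amt-4 with no annotated gene between them. Its counts were 25 and 41 in N2, 56, 52 and 50 in WT, and 68, 139 and 58 in 2KR. As CPM it stood at 1.17 and 1.83 in N2, 2.06, 1.95 and 1.76 in WT, and 2.22, 5.08 and 2.06 in 2KR. Replicate 2 of 2KR held more than the other 7 libraries, and the other 2KR libraries were close to the WT values. The log2 fold change of 2KR against N2 was 1.05 ± 0.40 SE, which did not pass (edgeR adjusted p = 0.142), and it was 0.51 without 2KR replicate 2. In WT against N2 it was 0.35 ± 0.42 SE (edgeR adjusted p = 0.697). In 2KR against WT, as a description, it was 0.69 ± 0.34 SE with all libraries and 0.16 ± 0.23 SE without 2KR replicate 2.

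Around the pair on chromosome X, the other nearby genes were not called. The nearest tested genes on the left were C05E11.6 and the zinc-finger gene ham-2, and the nearest on the right beyond amt-1 was C05E11.3. Their log2 fold changes in 2KR against N2 were -0.09 ± 0.31 SE for C05E11.6, -0.24 ± 0.21 SE for ham-2 and 0.14 ± 0.13 SE for C05E11.3. None of the 3 passed (edgeR adjusted p = 0.876, 0.489 and 0.525). The 2 nearest tested genes on each side of the 6 family members make 20 genes outside the family. Of these 3 were called in 2KR against N2: the collagen gene col-77 beside amt-3 (log2 fold change 3.38 ± 0.65 SE, edgeR adjusted p = 0.0139) and T04F3.1 beside rhr-2 (0.37 ± 0.09, 0.0404) rose, and scl-2 beside amt-2 fell (-1.59 ± 0.17, 6.07e-04). In WT against N2, 2 of the 20 were called, col-77 and scl-2. For comparison, 7.76% of the 14361 genes tested were called in 2KR against N2 and 4.07% in WT against N2. The genes beside rhr-1 were at -0.41 to 0.55 in 2KR against N2, with edgeR adjusted p from 0.376 to 0.899.

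**Figure D3:**
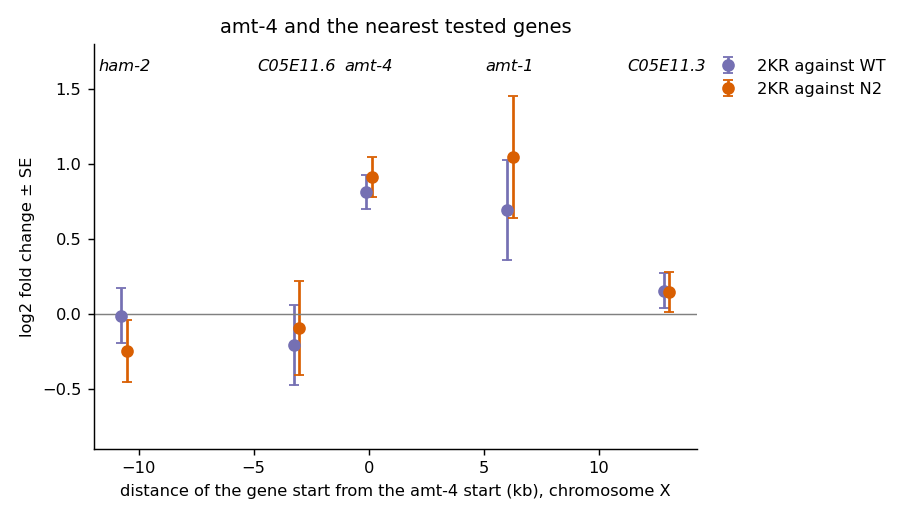
Log2 fold change (vertical axis; point and ± SE of the edgeR fit) of amt-4 and the nearest tested genes, placed by the distance of each gene start from that of amt-4 in kb (horizontal axis). Both comparisons with 2KR are shown; amt-4 and amt-1 lie above 0 in each, with a wide error for amt-1 (0.34 and 0.40), and the other 3 genes lie between -0.24 and 0.16.

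Of the remaining genes, amt-3 and rhr-2 were low and amt-2 was barely detected. For amt-3 (WBGene00000135, chromosome II 8363172 to 8369159, minus strand), the counts were 14 and 17 in N2, 16, 32 and 27 in WT, and 29, 21 and 36 in 2KR. The 2KR range, 0.767 to 1.28 CPM, lay just above that of N2, 0.654 to 0.758 CPM, and WT overlapped with both. Neither WT nor 2KR passed against N2 for amt-3 (edgeR adjusted p = 0.648 for a log2 fold change of 0.37 ± 0.37 SE, and 0.429 for 0.49 ± 0.37 SE). The gene M195.2 overlaps amt-3 on the other strand and had at most 8 counts in any of the 8 libraries. The sources used here do not say whether counting used the strand.

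For rhr-2 (WBGene00004359, chromosome V 11727900 to 11730160, minus strand), the other Rhesus-related gene, the counts were 33 and 50 in N2, 50, 51 and 45 in WT, and 63, 52 and 65 in 2KR. Its levels, 1.54 to 2.23 CPM in N2, 1.58 to 1.91 CPM in WT and 1.90 to 2.31 CPM in 2KR, overlapped between N2 and each line. The log2 fold change against N2 was -0.09 ± 0.23 SE in WT and 0.14 ± 0.22 SE in 2KR (edgeR adjusted p = 0.876 and 0.713). In 2KR against WT rhr-2 had 0.23 ± 0.20 SE and amt-3 had 0.13 ± 0.30 SE, both as a description.

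The gene amt-2 (WBGene00000134, chromosome IV 13042391 to 13047043, plus strand) had 6 and 7 counts in N2, 1, 5 and 5 in WT, and 2, 6 and 1 in 2KR. It was the single member removed by the filter on low counts, so the other 5 were tested. Both N2 libraries, at 0.280 and 0.312 CPM, were above the WT and 2KR libraries, which ran from 0.0355 to 0.219 CPM. At 1 to 7 counts per library, nothing is read from this order. With no filter the log2 fold change of amt-2 against N2 was -1.11 ± 0.69 SE in WT and -1.44 ± 0.72 SE in 2KR, and neither passed (edgeR adjusted p = 0.542 and 0.298).

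The summed level of the 6 genes averaged 107.5 CPM over both N2 libraries (SD 1.03, n = 2). It averaged 121.5 CPM over the WT libraries (SD 11.5, n = 3) and 156.7 CPM over those of 2KR (SD 7.92, n = 3), and rhr-1 made up most of it in each group. In 2KR against N2, 2 of the 5 tested genes were called, both higher, where 3.76% of all genes tested were called higher; rhr-1 is one, and the other is amt-4, which counts only as a description. Groups of 2KR and N2 did not overlap, with 2KR higher, for amt-1, amt-3, amt-4 and rhr-1, against 21.8% of all genes tested. For amt-4 this is a description, since it was chosen for being high in 2KR. For amt-3 the highest N2 library had 0.758 CPM and the lowest 2KR library 0.767 CPM, so nothing is read from the count. In WT against N2, 0 of the 5 were called by edgeR or by DESeq2, where 4.07% of all genes were called by edgeR. There 1 of the 5, rhr-1, had an unadjusted edgeR p under 0.05, as did 19.1% of all genes tested. In 2KR against WT, 1 of the 5 was called, amt-4, where 0.244% of all genes were called and 0.0766% were called higher; that contrast chose the gene, and nothing is read from the count. A fit of WT and 2KR alone took the replicate number as a block, as their libraries of the same number deviated together. There 2 of the 5 were called, amt-4 and rhr-1, where 1.35% of all genes were called higher. It is the same contrast that chose amt-4, so nothing is read from that count either, for rhr-1 or for the family.

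**Figure D4:**
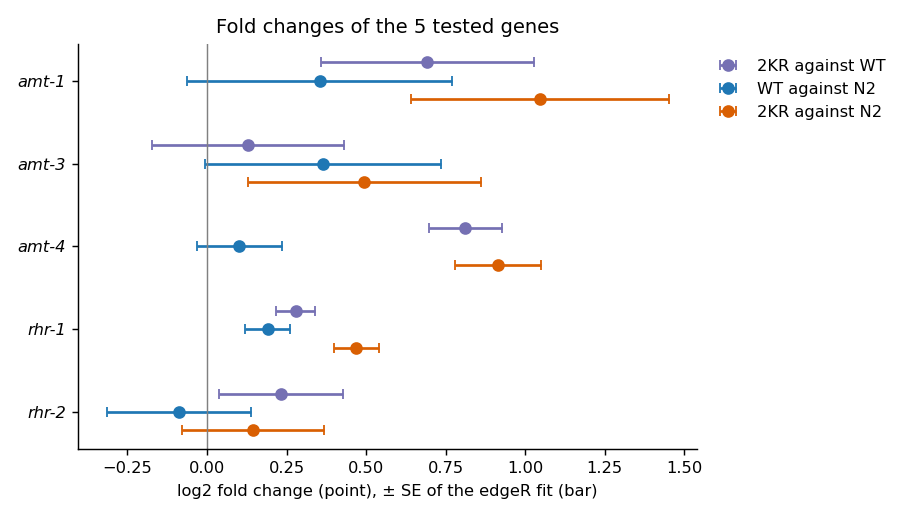
Log2 fold changes (horizontal axis; points, with ± SE of the edgeR fit as bars) of the 5 tested genes in 3 comparisons. For amt-4 the value of WT against N2 lies at 0.10 and those of 2KR at 0.81 and 0.91; for rhr-1 the 3 values are 0.19, 0.28 and 0.47 with short bars, and the bars of amt-1, amt-3 and rhr-2 are wider.

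Genes that handle ammonia beside the transporters were described from 6 lists of 75 names: enzymes that make or use ammonia, carbonic anhydrases, V-ATPase subunits, sodium-hydrogen exchangers, the sodium-potassium ATPase and aquaporins. Of these 69 were tested. In 2KR against N2, 10 rose and 2 fell, or 17.4% against the 7.76% of all genes, and the median log2 fold change was 0.10 against 0.01 over all genes. The count rests on the N2 libraries: 1 gene was called without N2 replicate 1, 0 of 69 without N2 replicate 2, and 7 without 2KR replicate 2. In WT against N2, 1 rose and 1 fell, or 2.9% against the 4.07% of all genes. In 2KR against WT, edgeR called 0 of 69, with 12 at an unadjusted p under 0.05, where 6.58% of all genes were. DESeq2 called 1, catp-3, where it called 0.675% of all genes. The block by title number, fitted on WT and 2KR alone, gave 3 calls, where 2.08% of all genes were called, and the block by header label over 8 libraries also gave 3, where 2.22% were.

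Among the enzymes, 3 of 16 rose and 1 fell in 2KR against N2. The histidine ammonia-lyase gene haly-1, whose product releases ammonia from histidine, went from 25.2 CPM in N2 to 40.7 CPM in WT and 49.1 CPM in 2KR. It was called in WT and in 2KR against N2 (log2 fold change 0.69 ± 0.14 and 0.96 ± 0.14 SE, edgeR adjusted p = 0.0252 and 0.00398). The asparagine synthetase gene asns-2 fell in both, from 58.3 CPM in N2 to 32.9 CPM in WT and 32.4 CPM in 2KR (-0.83 ± 0.16 and -0.85 ± 0.16 SE, edgeR adjusted p = 0.0181 and 0.0118). Both calls of WT against N2 were lost without either N2 library, with edgeR adjusted p of 0.109 and 0.212 for haly-1 and 0.0778 and 0.172 for asns-2 without N2 replicates 1 and 2, and that of asns-2 also without WT replicate 2 (0.0515). Smaller rises in 2KR against N2 were those of cth-2, a cystathionine gamma-lyase gene (0.26 ± 0.06 SE, edgeR adjusted p = 0.0257), and gcst-1 of the glycine cleavage system (0.20 ± 0.05 SE, 0.0274). The most abundant gene of the list, the glutamate dehydrogenase gene gdh-1, was at 973, 978 and 963 CPM in N2, WT and 2KR, and its log2 fold change in 2KR against N2 was -0.01 ± 0.08 SE.

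Among the ion and water transport genes, sodium-hydrogen exchangers had the highest median. All 9 tested exchangers had a positive fold change in 2KR against N2, with a median of 0.38. Over all genes tested, 7337 of 14361 were positive in that comparison. Among the 9, nhx-6 had 0 to 3 counts per library in N2 and 2KR (0.78 ± 1.54 SE), too few to give a direction. The 3 that rose were the intestinal exchanger gene nhx-2 (0.47 ± 0.11 SE, edgeR adjusted p = 0.0289), nhx-8 (0.38 ± 0.09, 0.0342) and nhx-9 (1.01 ± 0.19, 0.0121). Of 6 carbonic anhydrase genes, whose products interconvert carbon dioxide and bicarbonate, cah-4 rose (0.46 ± 0.10 SE, edgeR adjusted p = 0.0222), from 82.0 CPM in N2 to 113 CPM in 2KR. Of 11 aquaporin genes aqp-7 (0.56 ± 0.12 SE, edgeR adjusted p = 0.0253) and aqp-11 (0.33 ± 0.08, 0.0317) rose. All 21 V-ATPase genes, which encode the proton pump, had a positive but small fold change, with a median of 0.09, beside the 7337 of 14361 positive over all genes. The 1 that rose was vha-5 (0.32 ± 0.07 SE, edgeR adjusted p = 0.0271), while the most abundant, vha-13, had 0.18 ± 0.05 SE (0.0661). Of 6 sodium-potassium ATPase genes catp-3 fell (-1.30 ± 0.23 SE, edgeR adjusted p = 0.0088), from 21.4 CPM in N2 to 8.65 CPM in 2KR, and the main alpha subunit gene eat-6 was at 818 CPM in N2 and 794 CPM in 2KR. Each of the 12 calls in 2KR against N2 was lost without N2 replicate 2, and each except haly-1 without N2 replicate 1. With the block by title number, fitted on WT and 2KR alone, the genes called in 2KR against WT were catp-3 (-0.87 ± 0.14 SE, edgeR adjusted p = 0.0146), aqp-7 (0.23 ± 0.05, 0.0419) and vha-5 (0.21 ± 0.04, 0.0431). With the block by header label they were catp-3 (-0.88 ± 0.12 SE, edgeR adjusted p = 0.00319), cah-5 (0.36 ± 0.08, 0.0325) and vha-5 (0.20 ± 0.05, 0.0459), and aqp-7 was not called (0.0532).

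**Figure D5:**
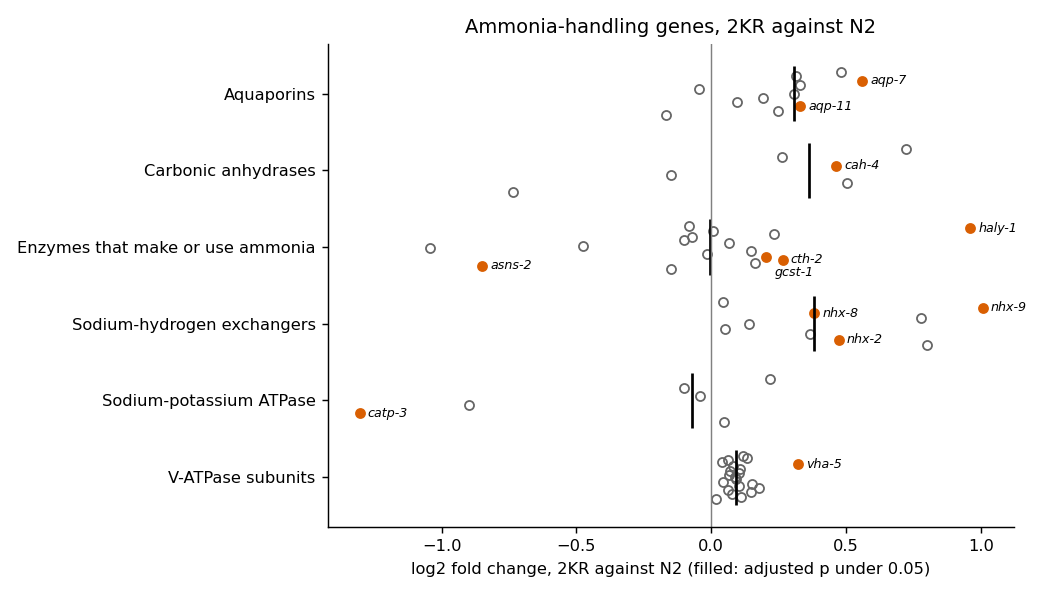
Log2 fold change in 2KR against N2 (horizontal axis) of the 69 tested ammonia-handling genes by list, with the list median as a vertical bar. Filled points are the 12 genes with an edgeR adjusted p under 0.05; nhx-9 at 1.01 and haly-1 at 0.96 are the furthest right of these, and catp-3 at -1.30 is the furthest left.

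The genes whose pattern over the 8 libraries was most like that of each transporter were found by Pearson r of log2 CPM, among tested genes with a mean log2 CPM of at least 2. For amt-4 they were F58G6.3 (r = 0.977), the purine salvage gene hprt-1 (0.977) and F58G6.7 (0.973). F58G6.3 had a mean of 7.76 CPM in N2, 8.07 CPM in WT and 12.8 CPM in 2KR. The level of hprt-1 was 57.5, 60.1 and 72.5 CPM in the same order, and that of F58G6.7 was 14.1, 16.1 and 22.9 CPM. Like amt-4, all 3 were close in N2 and WT and higher in 2KR. For rhr-1 the most alike were the patched-related gene ptr-14 (r = 0.988), F09B12.3 (0.988) and F22H10.3 (0.985), which stepped up from N2 to WT to 2KR; ptr-14 had means of 6.73, 9.08 and 12.1 CPM. For amt-1 they were unc-25 (0.970), spe-44 (0.963) and rga-1 (0.942), and for rhr-2 C25F6.1 (0.933), C34B4.4 (0.918) and T04F8.2 (0.896). All values of a pair come from the same 8 libraries and share their depth and repeat labels, and they were picked as the highest r of all genes scanned.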

How the data were processed

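Total RNA of 11 libraries was sequenced, and 8 were compared. Per the submitters' processing notes, Trimmomatic 0.32, TopHat2 2.1.0 and DESeq2 1.14.1 were used; the sources used here do not name the build, the annotation, the counting program or the use of strand. The files the authors deposited give raw counts, 1 library per file. Library directionality was marked by the kit, per the labels' protocols.

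Counts were scaled by TMM and filtered by filterByExpr, which left 14361 genes, and tested in 1 edgeR 4.0.16 quasi-likelihood fit (R 4.3.3, limma 3.58.1) with a term per group. The threshold was a Benjamini-Hochberg adjusted p of 0.05, adjusted over every gene in the fit. DESeq2 1.42.0 was an alternative. Standard errors are the absolute log2 fold change over the root of the F statistic. The fit was tested on simulated counts with known changes. Python 3.11.15 with pandas 2.3.3, NumPy 2.4.6 and matplotlib 3.10.9 made the summaries. Positions and exon lengths are from Ensembl 115 (WBcel235), matched by gene identifier, for 46474 of 47084 genes.

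The members and lists were chosen with earlier results of these data known. Named were the 6 genes, daf-16 and rol-6, called genes and the most abundant gene of each ammonia list, the 2 nearest tested genes on each side of a member, and the 3 genes most like each member with at least 20 counts in every library. Of 75 list names, 73 were in the files. Markers of 9 tissues were summed as CPM. The libraries of a group are labelled as biological repeats; where nothing ties them to separate cultures, p-values measure the spread between these libraries. WT and 2KR libraries with the same replicate number in the titles carry the same repeat label in the headers, and their deviations from the group means correlated at 0.413, 0.398 and 0.296, so the block is given for that comparison. N2 replicate 2 carries the header label 6-6, as replicate 3 of the lines does.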

Additional observations from a re-analysis of the deposited data

How the results depend on the processing

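The direction of rhr-1 in 2KR against N2 held under every scaling, filter, block and left-out library tried, with log2 fold changes of 0.43 to 0.51. Those of amt-4 ran from 0.85 to 1.01. They are a description only, since amt-4 was chosen for being high in these 2KR libraries. The rhr-2 value in WT against N2 ran from -0.324 to 0.205 over left-out libraries, positive without N2 replicate 2, and was 0.006 with the title-number block and 2 groups alone. In 2KR against N2 it ran from -0.084, without N2 replicate 1, to 0.440. Leaving out 1 library moved the count of genes called to 7 to 124 in 2KR against WT (35 with all), 101 to 616 in WT against N2 (584) and 162 to 1348 in 2KR against N2 (1114). Transporter genes called then numbered 0 to 2, 0 and 0 to 2, and ammonia-handling genes 0 to 3, 0 to 3 and 0 to 14. For 2KR against WT, all genes, transporters and ammonia-handling genes called numbered 97, 2 and 1 with DESeq2, 99, 2 and 1 with no filter, and 22, 0 and 0 with the 2 groups fitted alone. In WT against N2, no filter gave 911 genes and 4 ammonia-handling genes. The replicate block by title number, with the 2 compared groups alone, gave 286, 2 and 3 in 2KR against WT, 1188, 1 and 5 in WT against N2, and 2848, 3 and 22 in 2KR against N2. Against N2 that block kept only replicates 1 and 2 of each group, so replicate 3 of the line was left out. The replicate block by header label over 8 libraries gave 319, 2 and 3, then 1455, 0 and 7, then 2457, 2 and 23. Against N2, the title-number block set N2 replicate 2, of label 6-6, beside line replicates of label 3. For amt-1 it kept 2KR replicate 2, at 5.08 CPM, and left out 2KR replicate 3, at 2.06 CPM. With that block and the 2 compared groups alone, rhr-1 was called in WT against N2 (edgeR adjusted p = 0.0386) and amt-1 in 2KR against N2 (8.01e-04). Neither passed with the header-label block over 8 libraries (0.116 and 0.140). The cause of these shifts was not tested. With N2 as 2 libraries, leaving 1 out leaves a group of 1, which is assumed to vary like the others. Gene length by longest transcript gave the same values as the union of exons. Depth limits amt-2, amt-3, rhr-2 and amt-1, with 1 to 139 counts per library.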
